A study of Sus scrofa with 6 samples.

Results

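LIS1 (gene PAFAH1B1), NDEL1, the epsilon 14-3-3 protein (YWHAE) and the dynein heavy chain (DYNC1H1) form a complex that moves the nucleus and the centrosome along microtubules, and loss of LIS1 causes human lissencephaly, a smooth cortex. The members examined here were all probe sets of the array whose only gene symbol is PAFAH1B1, NDEL1, YWHAE or DYNC1H1. This gave 5 probe sets of 4 genes, among 10069 probe sets with exactly 1 symbol and 24123 in all. PAFAH1B1 had 2 of them, and no probe set with several symbols holds a member.

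Cytoplasmic dynein is the motor that walks towards the minus ends of microtubules, and in a migrating neuron it pulls on the microtubules that run from the centrosome to the nucleus. LIS1 binds the motor domain of the heavy chain and helps dynein to form active complexes, and NDEL1 brings LIS1 to dynein. CDK5 phosphorylates NDEL1, and YWHAE binds the phosphorylated form and protects it from being dephosphorylated. PAFAH1B1 and YWHAE lie close to each other in the human genome. Deletions that take both cause Miller-Dieker syndrome, the severe form of lissencephaly.

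Gene expression was measured in total RNA of the cerebral cortex of untreated pig (Sus scrofa) embryos at embryonic day 60 (E60), when the cortex is smooth, and at day 80 (E80), when it has primary folds. Each day had 3 embryos with 1 array each, named here E60-1 to E60-3 and E80-1 to E80-3. Breed and sex are not given in the labels, and the series describes the embryos as litter mates without saying which array belongs to which litter, so litter and day cannot be told apart. The tissue was whole cortex and the array counts no cells, so more cells of a type and more RNA per cell cannot be told apart either.

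Each value is a MAS5 signal, linear in brightness, which the authors scaled to a common level on each array. The neuronal gene STMN2 and the radial glia gene FABP7 were bright on every array (3351 to 4262 and 2526 to 2881), while 9 of the 10 listed cortical neuron markers were not measured by a named probe set. One library stood apart. The choroid plexus gene TTR had a signal of 4475 on E80-3, against 1.47 to 15.1 on the other arrays.

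All 4 genes were expressed at a high signal on both days, and the mean signal of NDEL1, YWHAE, DYNC1H1 and the first PAFAH1B1 probe set was 1.22-fold to 1.33-fold higher at E80. None of the 5 probe sets passed the test, which was limma's moderated test over 23999 probe sets with Benjamini-Hochberg adjustment and a threshold of 0.05. Of all probe sets, 0.933% rose and 1.01% fell, 1.95% together (224 rose and 243 fell, but 311 and 108 after median centring of the arrays). At an unadjusted p under 0.05 there were 3 of the 5 members, against 18.0% of all probe sets. For 3 of the 5 the E80 arrays lay above all E60 arrays, an order found in 9.25% of probe sets, while the opposite order, which no member had, was found in 14.4%. Members are bright, with mean signals above those of 92.6% to 98.2% of probe sets. Among the 1769 probe sets at least as bright as the dimmest member, 25.6% had all E80 arrays above all E60 arrays, 30.4% had an unadjusted p under 0.05 and 3.73% rose. The median log2 difference of E80 minus E60 was -0.05 over all probe sets and 0.10 over these bright ones.

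**Figure D1:**
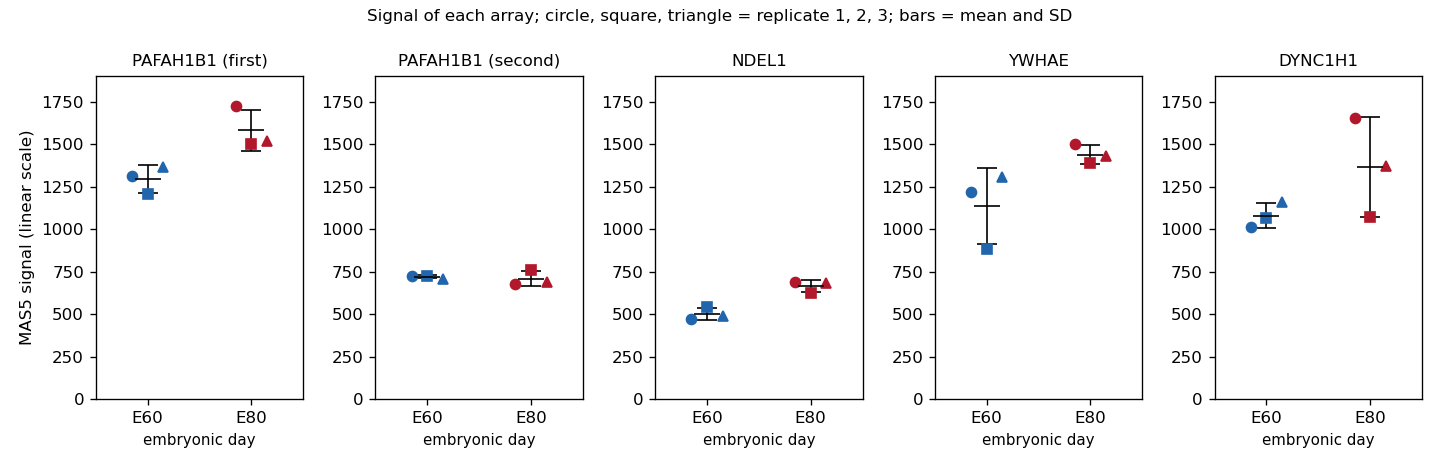
MAS5 signal (vertical axis, linear scale from 0) of the 5 member probe sets on each array at E60 (blue) and E80 (red). Circles, squares and triangles are replicates 1, 2 and 3 and bars are the mean and SD of 3 arrays. The E80 points lie above all E60 points for the first PAFAH1B1 probe set, NDEL1 and YWHAE, and the days overlap for the second PAFAH1B1 probe set and DYNC1H1.

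NDEL1, the scaffold that carries LIS1 to dynein, showed the largest difference among the members in this fit. Its signal was 470, 543 and 491 on E60-1, E60-2 and E60-3 and 689, 627 and 682 on E80-1, E80-2 and E80-3. The lowest E80 array was above the highest E60 array, and the arrays of a day lay close together. The mean was 501 ± 37.4 (SD, n = 3) at E60 and 666 ± 33.7 (SD, n = 3) at E80, a log2 difference of 0.41 (standard error 0.09, 95% interval 0.20 to 0.63). In limma the adjusted p was 0.0676, which is not past the threshold. The adjusted p was 0.0487 when only the brightest 66% of probe sets were tested and 0.0455 with array weights, and it was 0.0560 to 0.225 in the other settings run over all arrays. Over the 6 fits that each left out 1 array, the log2 difference of NDEL1 was 0.37 to 0.47 and the adjusted p 0.0794 to 0.222.

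PAFAH1B1, the gene of LIS1, was read by 2 probe sets that differed. On the first and brighter one the signal was 1314, 1206 and 1365 at E60 and 1721, 1500 and 1520 at E80. All E80 arrays were higher than all E60 arrays. The mean was 1295 ± 81.0 (SD, n = 3) at E60 and 1580 ± 122 (SD, n = 3) at E80, a log2 difference of 0.29 (standard error 0.09, 95% interval 0.08 to 0.50, adjusted p = 0.154 in limma). On the second, which the annotation pairs with the RefSeq mRNA of the gene, the signal was 727, 727 and 708 at E60 and 678, 759 and 687 at E80. Here the days overlapped, and E80 held both the highest and the lowest array. The log2 difference of this second probe set was -0.03 (standard error 0.08, 95% interval -0.22 to 0.17, adjusted p = 0.903 in limma).

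The disagreement of the PAFAH1B1 probe sets was then examined within each array. The log2 ratio of the first over the second was 0.85, 0.73 and 0.95 at E60 and 1.34, 0.98 and 1.14 at E80. The ratio was higher on all E80 arrays, by 0.31 on the mean, with SDs of 0.11 at E60 and 0.18 at E80. An exact permutation test over the arrays gave a two-sided p of 0.10, the smallest that 3 against 3 arrays allow. A ratio within an array is free of the scaling of the array. The comparison was chosen after the disagreement had been seen and could not have passed the threshold, so it restates the values and does not tell which probe set follows the gene. Which transcripts or transcript ends each probe set reads was not analysed here.

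YWHAE, which guards phosphorylated NDEL1, had a signal of 1221, 881 and 1308 at E60 and 1501, 1387 and 1427 at E80. The days did not overlap, and E60-2 was far below the other E60 arrays. The mean was 1137 ± 225 (SD, n = 3) at E60 and 1439 ± 57.9 (SD, n = 3) at E80, a log2 difference of 0.36 (standard error 0.14, 95% interval 0.03 to 0.69, adjusted p = 0.241 in limma). Without E60-2 the log2 difference of YWHAE was 0.19. After quantile normalization it was 0.26 and the days overlapped.

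DYNC1H1, the motor subunit itself, had a signal of 1015, 1065 and 1157 at E60 and 1653, 1070 and 1374 at E80. Here E80-2 lay within the range of E60, and the E80 arrays were spread widely, with an SD of 292 around a mean of 1365 against an SD of 71.8 around 1079 at E60 (n = 3 each). The log2 difference was 0.32 (standard error 0.15, 95% interval -0.03 to 0.67, adjusted p = 0.316 in limma). It was 0.17 without E80-1 and 0.48 without E80-2.

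The array E80-1 had the highest signal for the brightest probe set of each of the 4 genes. On this array the median signal of all probe sets was the lowest (55.6, against 59.2 to 64.8 on the others) and the signal at the 95th percentile was the highest (805, against 749 to 787). The 95th percentile was 749 to 769 at E60 and 785 to 805 at E80, so bright probe sets as a class had higher signals at E80. The part of this spread of signals in the members' differences was examined only through other scalings. After quantile normalization, which gives every array the same spread, the log2 difference was 0.37 for NDEL1, 0.17 for the first PAFAH1B1 probe set and 0.21 for DYNC1H1. The days stayed apart for 2 of the 5 members, and the share of all probe sets that did so under this scaling was not counted. After the arrays were set to a common median, which moved the median of all probe sets from -0.05 to 0.06, the log2 difference was 0.53, 0.40 and 0.43 in the same order. The second PAFAH1B1 probe set was -0.09 under the former and 0.09 under the latter scaling.

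**Figure D2:**
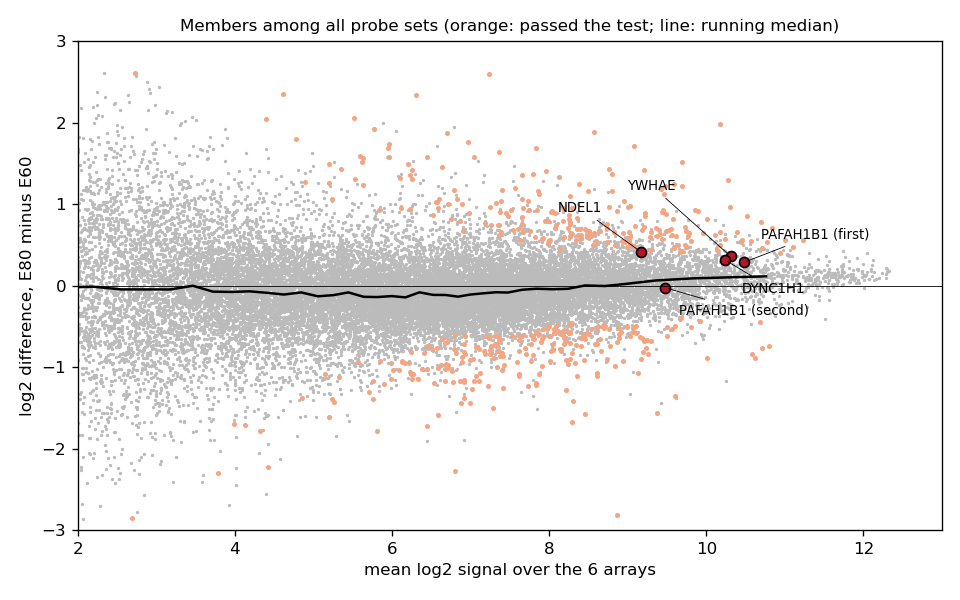
Log2 difference of E80 minus E60 (vertical axis) against the mean log2 signal over the 6 arrays (horizontal axis) for the probe sets tested, with the members in red, probe sets past the test in orange and a running median as the black line. Probe sets beyond the axes are not drawn. The members lie in the bright part of the array, where the median difference is above 0, and 4 of the 5 lie above the line.

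The 4 genes were also compared with each other, to ask whether they changed unequally. In each array the log2 signals of 2 genes at their brightest probe sets were subtracted, and the days were compared by an exact permutation test over the arrays. At the brightest probe sets the differences between the changes were 0.03 to 0.13 on the log2 scale over the 6 pairs. The largest was that of NDEL1 against PAFAH1B1, 0.13, with SDs of 0.19 at E60 and 0.08 at E80 and a two-sided p of 0.40 (adjusted over the 6 pairs 1.0). The smallest was that of DYNC1H1 against PAFAH1B1, 0.03, with SDs of 0.10 and 0.23 (exact two-sided p of 0.80, adjusted 1.0). Over all pairs the exact p was 0.40 to 1.0, and the smallest that this design allows is 0.10, so no pair could have passed and the genes are not shown to have changed alike. The 3 pairs with PAFAH1B1 depended on its probe sets. With the mean log2 signal of both, the difference was 0.28 for NDEL1 against PAFAH1B1 (exact two-sided p of 0.10, the smallest possible), 0.23 for YWHAE (p of 0.20) and 0.19 for DYNC1H1 (p of 0.40).

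The probe sets whose course over the 6 arrays was most like that of a member were found by the root mean square difference of the log2 signals, each centred on its own mean, among 6085 probe sets of 1 symbol brighter than the median probe set. For PAFAH1B1 (first probe set) they were CDK5, the kinase of NDEL1, at 0.027, the endoplasmic reticulum receptor RETREG1 at 0.038 and the ubiquitin-conjugating enzyme UBE2H at 0.043. For NDEL1 they were DNAJC6, the auxilin that uncoats clathrin vesicles in neurons, at 0.021, TMEM189 at 0.035 and the endosomal SNARE protein VTI1B at 0.046. For YWHAE they were CARD19 (0.059), SPATS2L (0.082) and the calmodulin gene CALM3 (0.094), and for DYNC1H1 the nicotinic receptor subunit CHRNB2 (0.059), CCM2 (0.075) and CD83 (0.083). Between any 2 of the 4 genes at their brightest probe sets the distance was 0.13 to 0.23. The distances above were picked as the smallest among 6085 probe sets, so larger ones between members do not show that the members are unlike. These distances describe 6 arrays and no test was made on them.

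The other genes of the pathway were taken from 10 lists. Of 151 listed genes, 69 were measured by a named probe set, and at the brightest probe set of each gene 2 rose, 2 fell and 20 had an unadjusted p under 0.05. Of all probe sets 0.933% rose, 1.01% fell and 18.0% had an unadjusted p under 0.05 in limma. Among the 1769 bright ones the last share was 30.4%. The counts of each list below are to be read beside these shares. The median log2 difference of the 69 was 0.07, beside -0.05 over all probe sets and 0.10 over the bright ones. How many of all probe sets had a difference above 0 was not counted, so such counts below have no background. Those not measured include NDE1, the close relative of NDEL1, doublecortin (DCX) and reelin (RELN), which were not analysed here.

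Dynein itself is built from the heavy chain with intermediate, light intermediate and light chains. Of 10 such subunits 7 were measured, 1 rose and none fell, with 3 at an unadjusted p under 0.05 and a median log2 difference of 0.16. DYNC1I1, the intermediate chain found mainly in neurons, had a signal of 706, 751 and 742 at E60 and 1022, 975 and 1053 at E80. The days lay far apart beside the spread of the arrays. DYNC1I1 rose, with a log2 difference of 0.47, a standard error of 0.08 and an adjusted p of 0.0321 in limma. Among the fits that each left out 1 array, it passed only without E80-2 (adjusted p = 0.0484), and the adjusted p was 0.0566 to 0.132 in the other 5.

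DYNC1I2, the intermediate chain found in all cells, gave another picture. Its bright probe set had a log2 difference of -0.14 (standard error 0.08, adjusted p = 0.426 in limma), with 1431 to 1457 at E80 and 1475 to 1688 at E60. Its dim second probe set, named here after its values were seen, fell by 1.03 on the log2 scale (adjusted p = 0.0495 in limma), from 77.0 to 121 at E60 to 42.3 to 52.7 at E80. The light chain DYNLT3, a cargo-binding subunit, had a log2 difference of 0.38 (standard error 0.08, adjusted p = 0.0576 in limma) and did not pass. It is also named after its values were seen, as the dynein subunit nearest to the threshold.

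Dynactin, the large cofactor that dynein needs for long runs, had 10 of 12 subunits measured. None rose and none fell in limma, and 2 had an unadjusted p under 0.05. Of the 10 log2 differences 8 were above 0, with a median of 0.12, near the 0.10 of the bright probe sets. The capping protein subunit CAPZA2 had a difference of 0.29 (adjusted p = 0.179), the pointed-end subunit DCTN6 one of 0.28 (adjusted p = 0.220) and DCTN3, of the shoulder of the complex, one of 0.19 (adjusted p = 0.285), all with the days apart. DCTN4, a subunit of the pointed end named after its values were seen, had all E80 arrays below all E60 arrays on each of its 3 probe sets, with differences of -0.19, -0.40 and -0.42 (adjusted p 0.177 to 0.291). The range over the 10 subunits at their brightest probe sets was -0.19 to 0.29.

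Among the partners of LIS1 and NDEL1, 12 of 25 genes were measured. None rose or fell in limma, 4 had an unadjusted p under 0.05, and the median log2 difference was 0.01. CDK5 had a signal of 424, 396 and 428 at E60 and 547, 479 and 471 at E80, a log2 difference of 0.26 (standard error 0.10, adjusted p = 0.206). PPP4R2, a subunit of the phosphatase PP4, which removes phosphate from NDEL1, had a difference of -0.29 (standard error 0.10, adjusted p = 0.190), with all E80 arrays below all E60 arrays. Its dimmer probe set had a difference of -0.04 (adjusted p = 0.941 in limma), with overlapping days. PPP4R3A, another subunit of that phosphatase, was measured near the bottom of the scale, at 8.96 to 15.4 at E60 and 0.882 to 7.83 at E80, and its difference of -2.70 (standard error 0.85) did not pass either (adjusted p = 0.145). The size for PPP4R3A rests on the scale and on single arrays, with -0.35 after 32 was added to each signal and -3.73 without E80-2, where it passed (adjusted p = 0.0365). PAFAH1B2, a catalytic subunit of the platelet-activating factor hydrolase that LIS1 also belongs to, had a difference of 0.04 (standard error 0.08, adjusted p = 0.865). Its 95% interval was -0.15 to 0.22. These values are of the brightest PAFAH1B2 probe set. The dimmer ones had differences of -0.34 and -0.32 (adjusted p 0.524 and 0.494 in limma), with overlapping days.

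Adaptors tie dynein to its cargo, and only 4 of 18 listed genes, adaptors and GTPases, were measured. None passed, and 2 had an unadjusted p under 0.05. RAB7A, the GTPase of late endosomes, was higher by 0.28 on the log2 scale at the mean (adjusted p = 0.163), while the kinesin and dynein adaptor MAPK8IP3 had a difference of -0.59 (adjusted p = 0.238) and MAPK8IP1 one of 0.34 (adjusted p = 0.638), which ran from 0.11 to 0.72 when 1 array was left out. Of the ciliary dynein 2 only DYNC2LI1 (-0.002, adjusted p = 0.995) and DYNC2I2 (-0.20, adjusted p = 0.610) were measured, of 5 listed, and none of these had an unadjusted p under 0.05 in limma.

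The relatives of YWHAE were compared because 14-3-3 proteins form mixed dimers and bind many of the same phosphorylated partners. Of 6 listed genes 5 were measured, 1 rose and none fell, with 2 at an unadjusted p under 0.05 and a median log2 difference of 0.33. YWHAH had a signal of 1781, 1799 and 2012 at E60 and 2568, 2623 and 2580 at E80. All E80 arrays were above all E60 arrays, and they were nearly equal to each other. YWHAH rose, with a log2 difference of 0.48, a standard error of 0.08 and an adjusted p of 0.0329 in limma. Among the fits that each left out 1 array, it passed only without E60-3 (adjusted p = 0.0365), and the adjusted p was 0.0637 to 0.142 in the other 5.

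The other 14-3-3 genes did not pass. YWHAB had a log2 difference of 0.33 (standard error 0.12, adjusted p = 0.190 in limma) with the days apart, close to the 0.36 of YWHAE. YWHAQ had one of 0.15 (standard error 0.09, adjusted p = 0.399) and YWHAZ one of 0.35 with a wide error (standard error 0.36, adjusted p = 0.662), since E80-1 was at 859 and the other E80 arrays at 2101 and 2332. Without 1 array the YWHAZ difference was 0.09 to 0.81. SFN, the epithelial member of the family, was dim, at 17.3 to 37.0, and had a difference of -0.59 (standard error 0.30, adjusted p = 0.350).

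**Figure D3:**
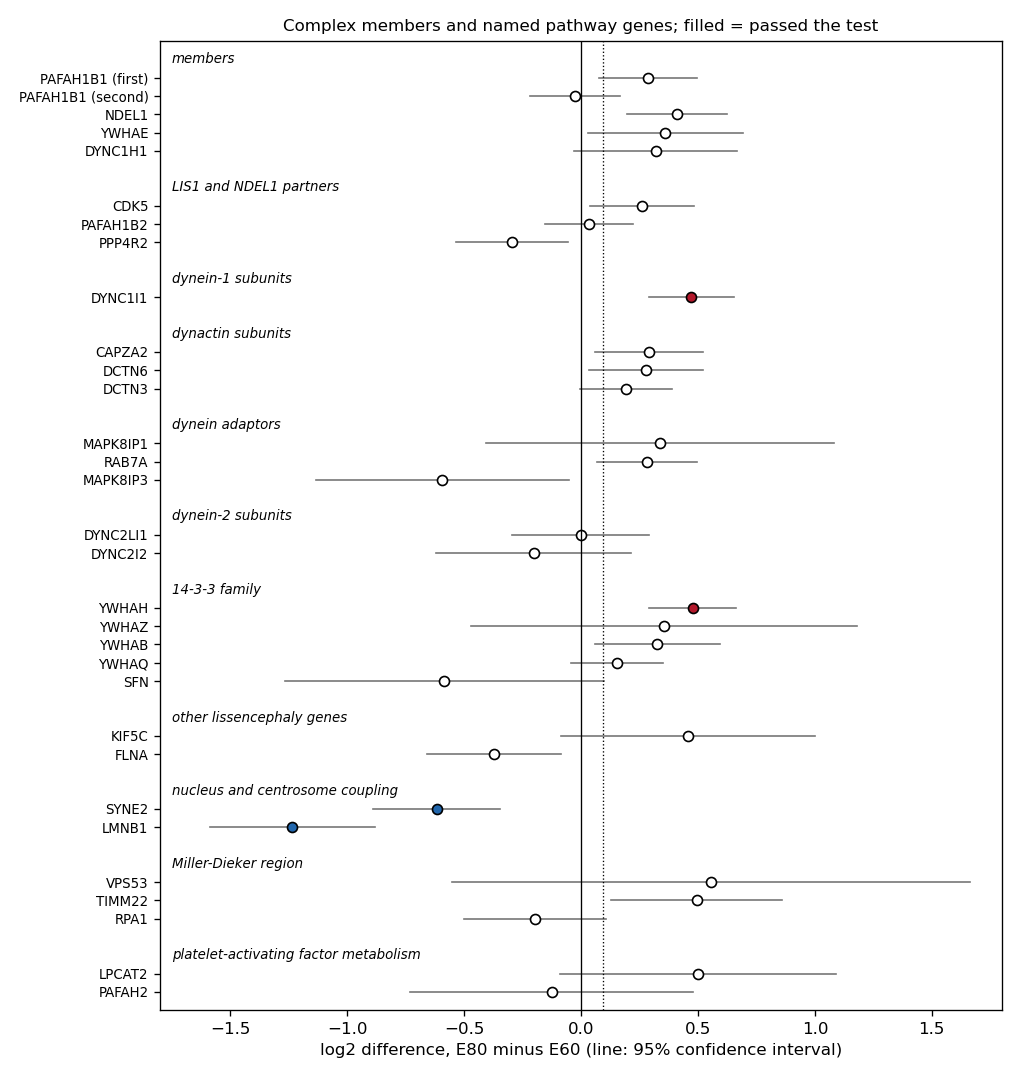
Log2 difference of E80 minus E60 (horizontal axis) with its 95% confidence interval for the members and for the named pathway genes, grouped by list (a gene of several lists is drawn once). Red points rose, blue points fell and open points did not pass, the dotted line is the median of the bright probe sets (0.10), and PPP4R3A (-2.70) is beyond the axis. DYNC1I1 and YWHAH rose and SYNE2 and LMNB1 fell.

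Genes that couple the nucleus, the spindle or the centrosome to dynein had the lowest median log2 difference of the 10 lists, -0.55 over the 6 measured of 17 listed, with 2 that fell, none that rose and 5 at an unadjusted p under 0.05. SYNE2, a nesprin of the outer nuclear membrane that links the nucleus to dynein in migrating neurons, fell from 175, 195 and 177 at E60 to 110, 121 and 127 at E80. Its log2 difference was -0.62, with a standard error of 0.12 and an adjusted p of 0.0449 in limma, and SYNE2 did not pass in any fit that left out 1 array (adjusted p 0.0727 to 0.181). Its adjusted p was 0.0513 to 0.0754 after quantile normalization, median centring or the addition of 32 to each signal. These values are of the brightest SYNE2 probe set, and the dimmer ones did not pass. The second had a difference of -0.62 (adjusted p = 0.292 in limma) with the days apart. The third, at 0.380 to 4.88, had one of 1.56 (adjusted p = 0.412 in limma) with overlapping days. LMNB1, the B-type lamin of the nuclear lamina, fell, with a log2 difference of -1.23, a standard error of 0.15 and an adjusted p of 0.0159 in limma. It passed in 3 of the 6 fits that left out 1 array. It did not pass without E60-1, E60-2 or E80-1 (adjusted p 0.0757 to 0.0903). SYNE1, another nesprin, was dim, at 4.97 to 46.4, and had a difference of 1.81 (adjusted p = 0.0988). CENPF, a kinetochore protein that binds NDEL1, had one of -0.86 (adjusted p = 0.101). Both are named after their values were seen. The study listed nesprin (SYNE1) among its up-regulated genes. Here the fold of SYNE1 was 3.51, with all E80 arrays above all E60 arrays, but it did not pass in limma. Of the measured markers of dividing and progenitor cells only TOP2A passed, and it fell, with a log2 difference of -1.11 (adjusted p = 0.0474 in limma). VIM was at -0.38 (adjusted p = 0.179), HES1 at -0.34 (adjusted p = 0.287) and the radial glia gene FABP7 at -0.03. Over the 4 measured progenitor markers of 12 listed the median was -0.36, and their part in the differences of this list was not tested.

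Of the other genes mutated in lissencephaly and related migration disorders, 11 of 23 were measured. None rose or fell in limma and 2 had an unadjusted p under 0.05. Filamin A (FLNA), the actin crosslinker of periventricular heterotopia, had a signal of 148, 130 and 154 at E60 and 109, 108 and 117 at E80, a log2 difference of -0.37 (standard error 0.13, adjusted p = 0.169). The neuronal kinesin KIF5C had one of 0.46 (standard error 0.24, adjusted p = 0.362), with 0.23 to 0.70 when 1 array was left out. CDK5 belongs to this list too. The median of the list was 0.15, and 9 of the 11 differences were above 0. The study listed the tubulin gene TUBA1, which it ties to human lissencephaly, as up-regulated on its arrays and by PCR. Here TUBA1A had 1 named probe set, at 76.9 to 102 at E60 and 84.3 to 102 at E80. Its log2 difference was 0.10 (standard error 0.16, adjusted p = 0.802 in limma), with overlapping days. Whether this is the probe set that the study listed was not tested, so the count above does not cover that result.

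The neighbours of PAFAH1B1 and YWHAE in the genome were examined because deletions remove them together. Of 34 genes listed from the human region, 11 were measured, none passed, 1 had an unadjusted p under 0.05, and the median log2 difference was -0.06. TIMM22, a mitochondrial import protein, had the smallest p of them (log2 difference 0.49, standard error 0.16, adjusted p = 0.155), followed by RPA1 (-0.20, adjusted p = 0.483) and VPS53 (0.55, adjusted p = 0.599). In the RefSeq table of the pig assembly Sscrofa11.1, YWHAE, PAFAH1B1 and NDEL1 lie on the same chromosome, and 25 protein-coding genes stand between YWHAE and PAFAH1B1, of which 24 are also on the list from the human region. The 6 of these 25 that were measured had log2 differences of -0.46 to 0.02 with a median of -0.14, all with overlapping days and adjusted p of 0.483 or more, and none had an unadjusted p under 0.05 in limma. The flanking genes themselves had the differences of 0.36 (YWHAE) and 0.29 (first PAFAH1B1 probe set) given above.

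Platelet-activating factor, the lipid that the hydrolase of LIS1 breaks down, is made, cleaved or sensed by 8 listed genes. Of these 4 were measured, none passed and none had an unadjusted p under 0.05 in limma. LPCAT2, an enzyme that makes it, had a log2 difference of 0.50 (standard error 0.26, adjusted p = 0.355, and 0.27 to 0.68 when 1 array was left out), and the hydrolase PAFAH2 one of -0.13 (standard error 0.26, adjusted p = 0.853). PAFAH1B2 was described above.

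Markers of other cell types also differed between the days. All 4 measured progenitor markers of 12 listed had a negative log2 difference, 1 of them fell (TOP2A, a gene of dividing cells, from 268 to 314 at E60 to 107 to 194 at E80), and their summed signal was 5217 to 5355 at E60 and 4240 to 4818 at E80. Of 8 astrocyte markers 7 were measured and 2 rose (GFAP and ALDOC), with a summed signal of 2165 to 2513 at E60 and 3128 to 4461 at E80. The neuronal marker STMN2 was at 3351 to 3856 at E60 and 4108 to 4262 at E80, with a log2 difference of 0.19 (adjusted p = 0.294 in limma). Of 6 measured interneuron markers of 9 listed, CALB2 rose (log2 difference 1.37, adjusted p = 0.0218) and the median was -0.06. No oligodendrocyte, meningeal or endothelial marker passed. The 5 measured oligodendrocyte markers had a median of 0.37, with 3 at an unadjusted p under 0.05 and a summed signal of 770 to 953 at E60 and 948 to 1724 at E80. The 6 meningeal and fibroblast markers had a median of -0.60, with 3 at an unadjusted p under 0.05 and a summed signal of 1893 to 2797 and 1328 to 2188. The 7 endothelial markers had a median of -0.34 and a summed signal of 1274 to 1384 and 992 to 1263. The part of these shifts in the differences of the members and the pathway genes was not tested. The choroid plexus markers (5 of 8 measured) summed to 92.9 to 176 at E60, to 115 and 200 on E80-1 and E80-2 and to 5475 on E80-3, with no marker at 0. Without E80-3 the log2 differences were 0.39 for NDEL1, 0.31 for the first PAFAH1B1 probe set, 0.36 for YWHAE and 0.30 for DYNC1H1, about as large as with it.

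The study set a 3-fold threshold for changes seen on all 3 arrays of a day, and how it computed the folds is not stated. Under a rule made here after it, a fold of at least 3 between the mean log2 signals with the days apart, no member was called, against 1.21% of all probe sets. That rule called 291 probe sets, more than the study listed, so the 2 rules are not the same. The 95% intervals of the members end at folds of 1.12 to 1.61 of E80 over E60, so a 3-fold rise of any of the 5 probe sets lies outside them. The study also measured some of these genes by quantitative real-time PCR. It reported LIS1 as up-regulated, NDEL1, FLNA and VLDLR as down-regulated and CDK5 as not significantly changed. Those PCR values were normalized to reference genes, while the array signals were scaled to a common level on each array. For NDEL1 this direction is opposite to the array difference of 0.41 (adjusted p = 0.0676 in limma). For LIS1 only the first PAFAH1B1 probe set had a higher mean at E80. For VLDLR the brighter probe set had a difference of 0.16 (adjusted p = 0.554 in limma) with overlapping days. The dimmer VLDLR probe set had one of -0.48 (adjusted p = 0.215 in limma), with all E80 arrays below all E60 arrays. The cause of the NDEL1 disagreement was not tested.

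**Figure D4:**
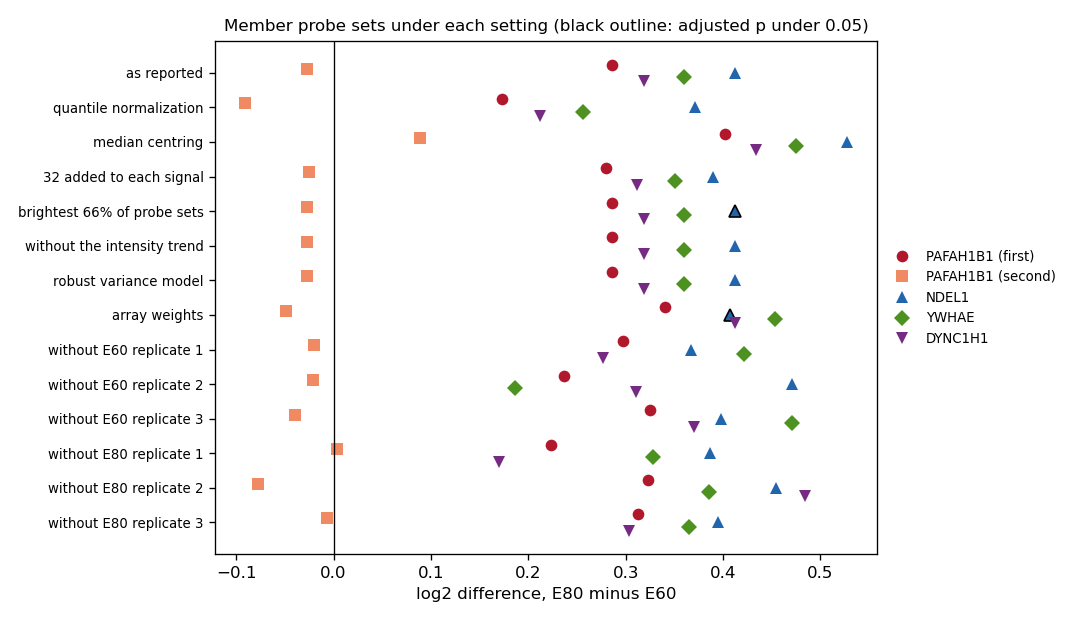
Log2 difference of E80 minus E60 (horizontal axis) of the 5 member probe sets under each setting (vertical axis), from the reported fit to those without 1 array. A black outline marks an adjusted p under 0.05, which only NDEL1 reaches, with the brightest 66% of probe sets and with array weights. The second PAFAH1B1 probe set stays near 0 (-0.09 to 0.09) while the others are above 0 in each setting shown.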

How the data were processed

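The deposited intensity values are MAS5 signals, 1 per probe set and array of the Affymetrix Pig Genome Array, which the authors scaled to a common mean by 1 factor per array. The MAS5 version is not given in the sources used here, and detection calls were not used. Signals ran from 0.00614 to 5781, none at 0. Leaving out 124 controls, log2 was taken without a pseudocount.

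E80 was compared with E60 over all 23999 remaining probe sets by limma 3.58.1 in R 4.3.3 (lmFit, eBayes with an intensity trend, no covariates), two-sided, with Benjamini-Hochberg adjustment and a threshold of 0.05. The study names no test. Intervals are at 95%. Pairs of members were compared by exact permutation (scipy 1.17.1).

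Symbols came from the platform annotation, updated through the gene IDs of RefSeq. Members and gene lists were chosen with earlier results of these data known. Genes were named if their brightest probe set passed, else up to 3 per list by smallest p, with all 14-3-3 genes. The test of the 2 PAFAH1B1 probe sets, the bright background and the pig interval were added after the data were seen. In simulated arrays limma found 97 of 100 probe sets changed 2-fold, 100 of 100 changed 3-fold, and 7 false calls. The changed probe sets were all brighter than the median, and each brightness level was given its median spread. Changes as small as those of the members were not simulated. Arrays have no counting depth, and the 3 arrays per day limit the precision. The embryos are described as litter mates with no litter given per array, so litter and day cannot be told apart. The p-values measure only the spread between these embryos.

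Alternatives were a robust variance model or none of the trend, array weights, a 3-fold rule, all probe sets of a gene or their mean, a filter to the brightest 66%, an offset of 32 before log2, scaling by quantiles or by the median, and leaving out each array in turn.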

Additional observations from a re-analysis of the deposited data

How the results depend on the processing

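NDEL1 was the member nearest to the threshold, and it passed in 2 settings, the brightest 66% of probe sets (log2 difference 0.41) and array weights (0.41), so that 1 member rose there and none did otherwise. The second PAFAH1B1 probe set changed sign with median centring (0.088) and ran from -0.078 to 0.0037 when 1 array was left out. Leaving out 1 array, the differences between members ran from -0.073 to 0.28 for NDEL1 and YWHAE, -0.030 to 0.22 for NDEL1 and DYNC1H1, 0.069 to 0.23 for NDEL1 and PAFAH1B1, -0.12 to 0.16 for YWHAE and DYNC1H1, -0.050 to 0.15 for YWHAE and PAFAH1B1 and -0.054 to 0.16 for DYNC1H1 and PAFAH1B1. Of the pathway genes, 2 rose and 2 fell as reported. Without the intensity trend 0 rose and 0 fell (also 0 over all probe sets in limma, with 3706 at an unadjusted p under 0.05). With a 3-fold rule 1 was higher (SYNE1) and 1 lower (PPP4R3A). With quantile normalization, median centring or 32 added, 1 fell, since SYNE2 did not pass. Over all probe sets of these genes 2 rose and 3 fell. Array weights gave 3 that rose and 3 that fell, and the brightest 66% gave 3 and 2. When 1 array was left out, 0 to 1 rose and 0 to 2 fell. Over all probe sets, array weights gave 520 that rose and 649 that fell, the brightest 66% gave 353 and 410, and median centring 311 and 108, against 224 and 243 as reported. Without E60-1, E60-2 or E80-1, 1 probe set of the array passed. Without E60-3, 170 rose and 124 fell, without E80-2, 178 and 189, and without E80-3, 97 and 103. Among named genes that were not called, PAFAH1B2 changed sign with quantile normalization (-0.069, and -0.0079 to 0.080 with 1 array left out), DYNC2LI1 with quantile normalization (0.052) and median centring (0.11, and -0.11 to 0.088 with 1 array left out) and PAFAH2 when 1 array was left out (-0.34 to 0.058). The cause of these changes was not tested. The days share no replicate numbers in the labels, so no paired fit was made.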
